A study of Mus musculus with 7 samples.

Results

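Muscle contraction depends on calcium that is released into the cytosol, bound by proteins and pumped back into its store, and on creatine kinase, which regenerates the ATP that pumps and myosin use. The genes described here are 10 members of that machinery: Atp2a1, Atp2a2, Ryr1, Casq1, Casq2, Cacna1s, Sln, Pvalb, Ckm and Ckb. The list was selected on the signal difference between the diets in these same arrays, and all 10 were found among the 18193 genes with a probe set of 1 gene symbol. A gene with several probe sets is represented by the brightest one over all arrays. Within the list, 4 genes are the forms of skeletal muscle (Atp2a1, Ryr1, Casq1 and Ckm) and 2 are related forms used in many other tissues (Atp2a2 and Ckb).

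The arrays came from mammary glands of virgin female FVB mice at 8 weeks of age. All of the mice carried the polyoma virus middle T transgene (PyV-MT), an oncogene that drives mammary tumours, so no gland without it is compared. The CLA glands came from mice fed chow with 1% conjugated linoleic acid, a group of linoleic acid isomers with conjugated double bonds, for 4 weeks (4 arrays). The control glands came from mice fed the AIN93G control chow (3 arrays). The study placed 6 mice on CLA and 5 on control chow, and the arrays cover 4 and 3. By the labels a sample is a mouse, but they name neither pooling nor the transgene's promoter, so each array is counted as 1 sample and p-values measure only the spread between these arrays.

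Values are MAS5 signals, the brightness of a probe set on a linear scale in arbitrary units, deposited with a trimmed mean of 500.003 on each array. Median signal ran from 98.8 to 111 in CLA glands and from 112 to 113.5 in control glands, so every CLA array was slightly lower, and centring on the median left the difference of the muscle forms at -3.51 on the log2 scale. RNA quality, read from the 3′ over 5′ signal of Actb, gave ratios of 1.41 to 1.88 on 6 arrays and 2.78 on CLA replicate 3. CLA replicate 1 and control replicate 1 have title numbers that start with 27, and the other 3 CLA and 2 control arrays have numbers that start with 28. The labels do not say what these numbers stand for, and values within each are printed beside the pooled ones. With 7 arrays in all, precision is limited by their number.

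In a resting fibre, calcium is held inside the sarcoplasmic reticulum. A voltage sensor in the surface membrane opens the release channel of that store, calcium binds to the thin filament and the fibre shortens, and a calcium pump then refills the store. Creatine kinase moves phosphate between creatine and ATP, and different tissues use different genes for the same step. Skeletal muscle is no part of the mammary epithelium. Epithelial genes were bright on all arrays, as the tissue label has it. Krt18, a luminal keratin, was between 17394 and 18598 in CLA glands and between 16268 and 20972 in control glands. Of the 8 epithelial markers, 5 were lower and 3 higher in CLA glands by mean log2 signal, and not all were as even. Krt5 was at 1631 to 2198 in CLA and 559 to 1476 in control glands. On CLA replicate 3, Csn2 had 4449 and Wap 5063, against at least 31031 and 20655 on the control arrays.

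The skeletal muscle forms had lower mean signal in CLA than in control glands, but the groups overlapped for each of the 4, where 2.67% of the 12497 genes tested had every CLA array below every control array. Related forms of other tissues had nearly the same signal in both. The mean log2 difference, CLA minus control, was -3.59 ± 1.45 (SE) over Atp2a1, Ryr1, Casq1 and Ckm and 0.14 ± 0.11 (SE) over Atp2a2 and Ckb. Over the muscle forms it was -2.59 without control replicate 2, -4.45 without CLA replicate 1 and 0.41 on the pair of arrays with title numbers that start with 27. In bulk tissue, fewer muscle fibres in a sample and less RNA per fibre cannot be told apart. Because the list was made with this difference known, the values are a description and no test is given for the members. The SE is that of a difference of group means with pooled variance.

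**Figure D1:**
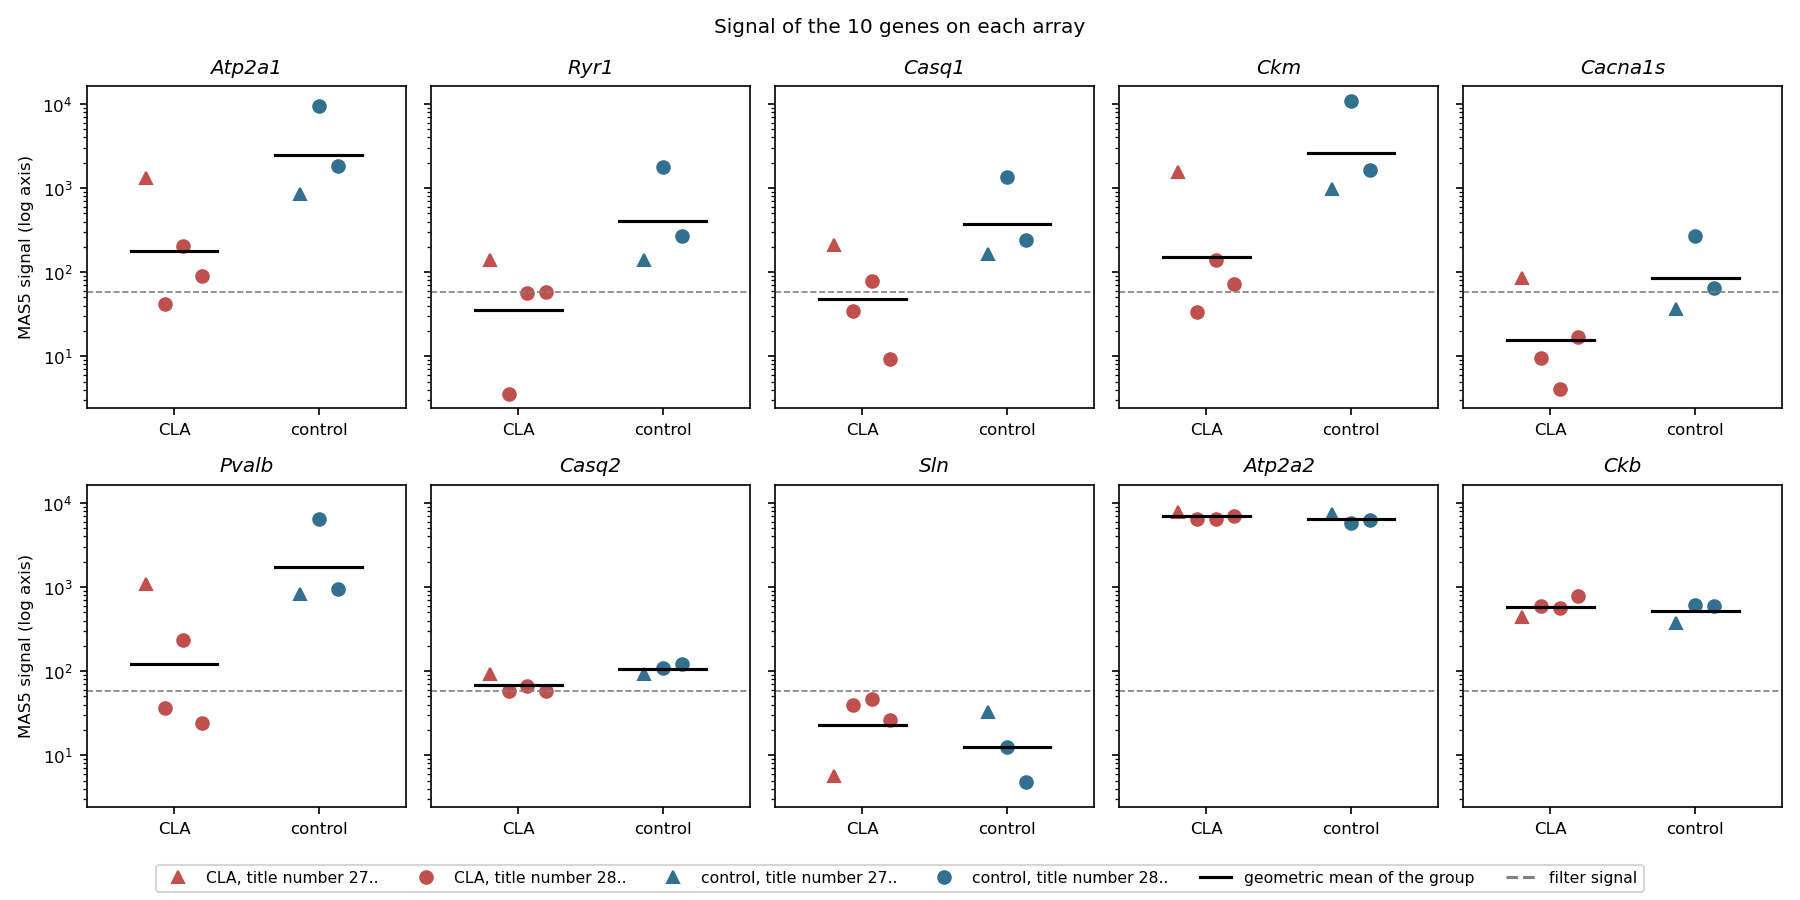
MAS5 signal (log axis) of the 10 genes on each array, with 4 CLA arrays left and 3 control arrays right in each panel; triangles mark title numbers that start with 27, circles those that start with 28, black lines the geometric group means and the dashed line the filter signal of 57.7. Atp2a1, Ryr1, Casq1, Ckm, Pvalb and Cacna1s spread over 6.04 to 8.97 log2 units between arrays, while Atp2a2 spans 0.44 log2 units.

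The sequences at the start sites of the muscle forms are shown because these 4 genes shared the order of their 4 highest arrays. Each is the RefSeq promoter of build GRCm38.p6, 250 bases before to 50 after the annotated start, read 5′ to 3′. Capitals mark the motif CAGCTG, a form of the E-box that myogenic factors of the MyoD family bind.
Atp2a1, chr7:126463024-126463323, minus strand: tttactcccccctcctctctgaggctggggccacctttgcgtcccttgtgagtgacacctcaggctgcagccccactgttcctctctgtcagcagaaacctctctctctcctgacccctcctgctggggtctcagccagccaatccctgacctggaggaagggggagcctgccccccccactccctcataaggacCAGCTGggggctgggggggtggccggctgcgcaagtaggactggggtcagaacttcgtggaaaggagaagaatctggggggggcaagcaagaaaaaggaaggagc
Ryr1, chr7:29125102-29125401, minus strand: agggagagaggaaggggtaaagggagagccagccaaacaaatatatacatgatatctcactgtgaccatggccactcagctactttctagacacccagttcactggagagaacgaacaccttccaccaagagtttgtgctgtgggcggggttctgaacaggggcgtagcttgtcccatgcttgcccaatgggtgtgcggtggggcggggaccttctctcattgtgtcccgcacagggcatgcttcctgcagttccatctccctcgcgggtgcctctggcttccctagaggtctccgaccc
Casq1, chr1:172219846-172220145, minus strand: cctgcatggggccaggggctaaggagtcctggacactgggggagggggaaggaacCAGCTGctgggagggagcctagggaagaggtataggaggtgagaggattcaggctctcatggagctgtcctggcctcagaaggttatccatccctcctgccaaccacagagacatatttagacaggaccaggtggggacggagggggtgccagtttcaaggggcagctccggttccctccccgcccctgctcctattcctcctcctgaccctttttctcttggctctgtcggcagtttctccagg
Ckm, chr7:19410844-19411143, plus strand: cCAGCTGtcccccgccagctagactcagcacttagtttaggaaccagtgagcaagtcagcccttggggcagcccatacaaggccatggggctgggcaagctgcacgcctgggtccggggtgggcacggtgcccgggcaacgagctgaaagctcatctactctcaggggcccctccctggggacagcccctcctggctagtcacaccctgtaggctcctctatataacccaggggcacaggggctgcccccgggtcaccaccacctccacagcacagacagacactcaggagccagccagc

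The CAGCTG motif, which reads the same on both strands, was found in 3 of these 4 windows, and in 16.3% of all 32851 promoters of that length in the RefSeq table. Relative to the start site it began at position -55 in Atp2a1, -195 in Casq1 and -249 in Ckm. Cacna1s also held 1 match. No match to the motif of the MEF2 muscle factors was found in the 4 windows, against 3.19% of all promoters, and the letters TATAAA, searched on both strands, were not found in them either, against 13.6%. A match is a run of letters and not a shown binding site, and no match says only that the letters are not in this window.

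Atp2a1 encodes SERCA1, the calcium pump of fast-twitch fibres. Its signal was 1335, 42.0, 203 and 90.0 on CLA replicates 1 to 4, against 853, 9353 and 1835 on control replicates 1 to 3. CLA replicate 1 lay between control replicates 1 and 3, and the other 3 CLA arrays lay below every control array. Between the diets it differed by -3.77 ± 1.53 (SE) on the log2 scale, or 13.7-fold lower as a ratio of geometric means. Of the 10 genes, the largest difference was that of Ckm.

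Ckm encodes the creatine kinase of the muscle cytosol. Its signal was 1538, 33.2, 141 and 71.5 on the CLA arrays and 982, 10953 and 1642 on the control arrays. As for Atp2a1, the first CLA array fell inside the control range and control replicate 2 stood above all others. This was a log2 difference of -4.11 ± 1.67 (SE), or 17.3-fold lower in CLA glands. A second, dim Ckm probe set went the other way, with 40.6, 83.7, 25.6 and 57.1 on the CLA arrays, against 11.5, 176 and 38.0 on the control arrays, a log2 difference of 0.15. It did not separate the groups, and control replicate 2 was the highest array on both probe sets.

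Ryr1 encodes the release channel of the sarcoplasmic reticulum in skeletal muscle. Its signal was 141, 3.58, 57.2 and 58.0 on the CLA arrays, against 139.8, 1797 and 272 on the control arrays. CLA replicate 1 and control replicate 1 were nearly equal, and the other CLA arrays were lower than every control array. Its log2 difference, -3.51 ± 1.64 (SE), was near that of Atp2a1. A second Ryr1 probe set had 70.4, 4.51, 24.6 and 22.9 on the CLA arrays and 50.2, 298 and 60.7 on the control arrays, with a difference of -2.24, the same direction at lower brightness.

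Casq1 encodes the calsequestrin of fast fibres, which binds calcium inside the store. It had 208, 34.9, 78.3 and 9.28 on the CLA arrays and 165, 1349 and 240.4 on the control arrays. The log2 difference was -2.98 ± 1.37 (SE), the smallest of the 4 muscle forms. All 4 had the same order at the top, with control replicate 2 highest, then control replicate 3, CLA replicate 1 and control replicate 1, and the other 3 CLA arrays below.

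Cacna1s encodes the voltage sensor that opens the release channel. It was dim, with 84.4, 9.60, 4.12 and 16.9 on the CLA arrays, against 36.0, 271 and 64.2 on the control arrays. CLA replicate 1 was second only to control replicate 2. CLA and control differed by -2.47 ± 1.31 (SE) on the log2 scale. Its signal was under 57.7 on 4 of 7 arrays, so its size is uncertain. That signal is the 40th percentile of probe sets, and genes with a lower mean were left out of the fit across all genes.

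Pvalb encodes parvalbumin, a soluble calcium buffer of fast fibres that is also made by some neurons. Its signal was 1079, 36.5, 236 and 24.3 on the CLA arrays and 819.8, 6465 and 950.2 on the control arrays. CLA replicate 1 was above control replicates 1 and 3. Its log2 difference was -3.80 ± 1.70 (SE), close to that of Atp2a1. The neuronal genes Snap25, Tubb3 and Nefl were dim on every array, at most 37.1.

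Casq2, the calsequestrin of heart and slow fibres, had a much smaller range over the arrays. It had 92.1, 58.9, 67.0 and 58.6 on the CLA arrays, against 92.6, 109.8 and 120.2 on the control arrays. All CLA arrays lay below all control arrays, although the first of each differed by only -0.01 on the log2 scale. The log2 difference was -0.65 ± 0.20 (SE), and the signals were close to the filter signal. Among the 10 genes, and among the 8 bright enough for the fit, it was the 1 whose groups did not overlap. That is set against the 2.67% given above, and 2.64% of genes tested had CLA above control.

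Sln encodes sarcolipin, a small membrane protein that inhibits the SERCA pumps. All 7 arrays were under the filter signal, with 5.73, 39.3, 46.1 and 26.1 on the CLA arrays and 32.8, 12.4 and 4.86 on the control arrays. The log2 difference was 0.86 ± 1.05 (SE), smaller than its error. Its other probe set, less bright by the mean of log2 signal, had 2.50, 7.01, 43.3 and 3.26 on the CLA arrays, against 5.07, 159 and 19.7 on the control arrays, a difference of -1.83. The probe sets therefore disagreed in sign, and no direction is given for Sln.

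Atp2a2 encodes SERCA2, which serves heart, slow fibres and, in another splice form, nearly all other cells. Of the 10 genes it had the steadiest signal over the arrays. The signals were 7890.3, 6439, 6518 and 7084 on the CLA arrays, against 7395, 5822 and 6317 on the control arrays. The groups overlapped, with a log2 difference of 0.10 ± 0.12 (SE). Its other 5 probe sets had differences from -0.06 to 0.35, and the 2 groups overlapped on all 6.

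Ckb encodes the brain-type creatine kinase, which is also found in epithelium, smooth muscle and brown fat. Its signals were 435, 589, 565 and 789 on the CLA arrays and 373, 619 and 600.4 on the control arrays. The groups overlapped, with a log2 difference of 0.17 ± 0.29 (SE). Without control replicate 1 that difference was -0.07, where the sign turned. The promoter of Ckb is shown for comparison with that of Ckm, from the same table and window, and its capitals mark a run that matches both the MEF2 motif and the overlapping letters TATAAA.
Ckb, chr12:111672289-111672588, minus strand: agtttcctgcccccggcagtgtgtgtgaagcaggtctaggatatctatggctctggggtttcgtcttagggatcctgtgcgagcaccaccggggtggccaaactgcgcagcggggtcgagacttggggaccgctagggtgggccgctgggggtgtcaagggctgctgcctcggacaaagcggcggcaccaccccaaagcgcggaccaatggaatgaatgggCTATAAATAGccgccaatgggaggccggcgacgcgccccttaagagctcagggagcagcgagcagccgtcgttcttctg

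The Ckb window held 22 CG dinucleotides and the Ckm window 7, at 63.0% and 64.7% G and C, against medians of 7 and 52.7% over all promoters. The run in capitals begins at position -29 relative to the start of Ckb, and the CAGCTG motif was not found there. Promoters of Atp2a2 and Sln are not shown. RefSeq promoters were matched for 8 of the 10 members, of which Casq2 and, at 1 of its 2 starts, Pvalb held a match to the MEF2 motif.

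Set side by side, the forms of one enzyme differed in how they varied over the arrays. Ckm relative to Ckb, as the log2 ratio on an array minus its mean over arrays, was 1.94, -4.04, -1.89 and -3.35 on the CLA arrays, against 1.51, 4.26 and 1.57 on the control arrays. CLA replicate 1 thus lay within the control values. Atp2a1 relative to Atp2a2 was 1.06, -3.64, -1.39 and -2.68 on the CLA arrays and 0.50, 4.31 and 1.84 on the control arrays. Casq1 relative to Casq2 was 0.68, -1.25, -0.27 and -3.15 on the CLA arrays, against 0.35, 3.13 and 0.51 on the control arrays.

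The mean of the 4 muscle forms minus that of the 2 other forms differed by -3.73 ± 1.47 (SE) between the diets. Within title numbers that start with 27 it was 0.25, from 1 array per group, and within those that start with 28 it was -5.27. With the number as a block it was -3.64. Leaving out control replicate 2 gave -2.76, and leaving out CLA replicate 1 gave -4.63. Such a ratio shows that the forms varied unequally and not that either was constant.

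**Figure D2:**
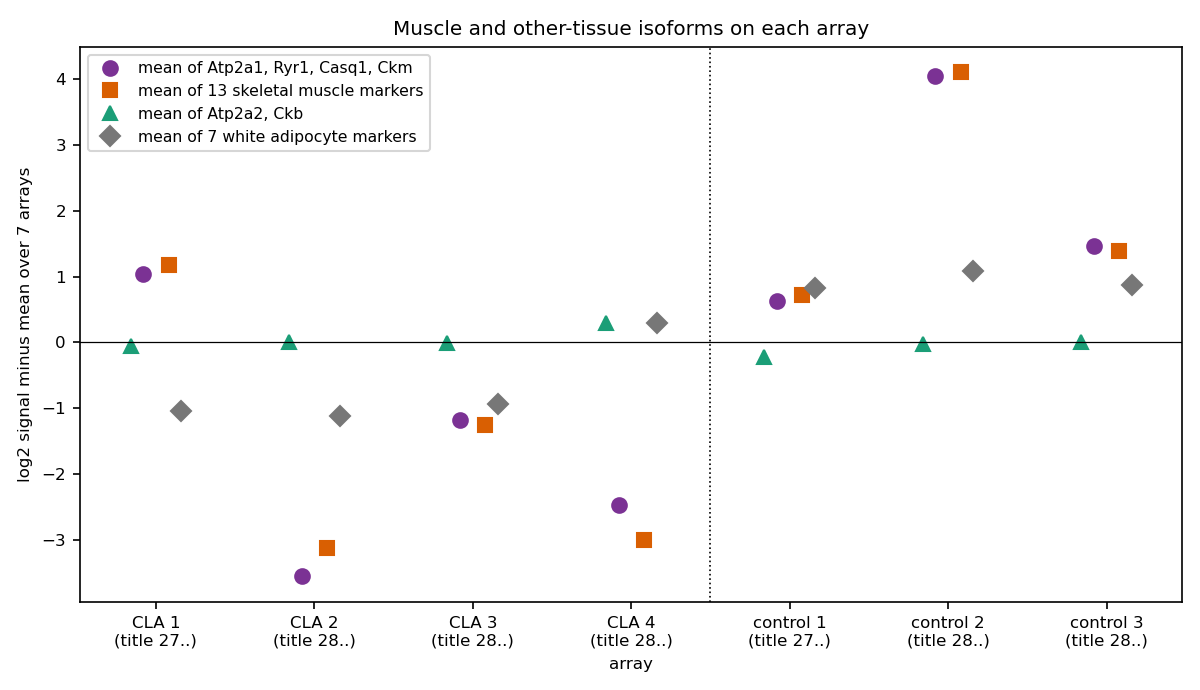
Mean log2 signal of 4 gene groups on each array, minus the group's mean over the 7 arrays, with CLA arrays left and control arrays right of the dotted line. The 4 muscle forms (circles) run with the 13 skeletal muscle markers (squares) from -3.55 on CLA replicate 2 to 4.05 on control replicate 2, the mean of Atp2a2 and Ckb (upward triangles) stays between -0.22 and 0.29, and white adipocyte markers (diamonds) are low on CLA replicate 1 where the muscle forms are not.

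Within the title numbers the diets differed by unlike amounts, and for the muscle genes in unlike directions; that interaction was not tested. On the arrays that start with 28, all 3 CLA signals lay below both control signals for 7 of the 10 genes. Of the 8 members bright enough for the fit, 6 did so, where 11.0% of all genes tested did. The list was selected on the diet difference in these same arrays, so nothing is read from that count. Ckm differed there by -5.93 on the log2 scale, Atp2a1 by -5.50, Pvalb by -5.38, Ryr1 by -4.94, Casq1 by -4.28, Cacna1s by -3.92 and Casq2 by -0.90. On the pair that starts with 27, CLA replicate 1 was above control replicate 1 for 8 of the 10 genes. Of the 8 bright enough for the fit it was above for 7, where 50.9% of genes tested were. It was above by 0.65 for both Ckm and Atp2a1, 0.40 for Pvalb, 0.33 for Casq1, 1.23 for Cacna1s and 0.01 for Ryr1. With 1 array per diet that pair has no replicate check.

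**Figure D3:**
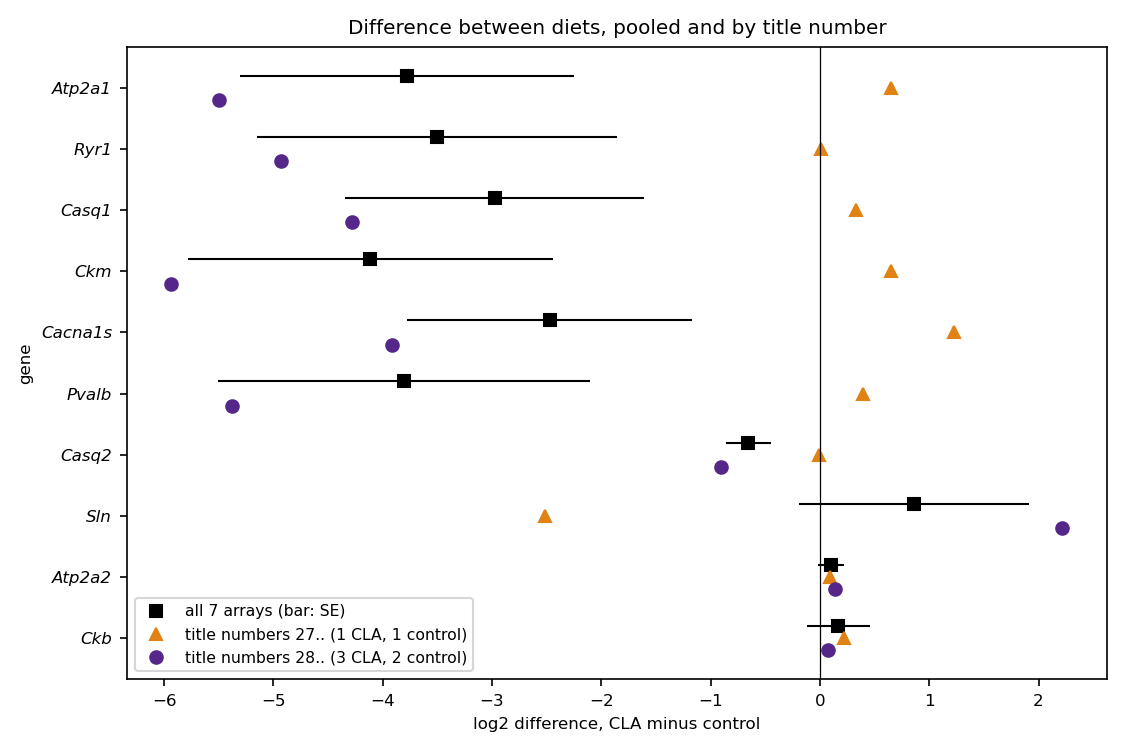
Log2 difference in signal, CLA minus control, of the 10 genes over all 7 arrays (squares, bars are the SE), within title numbers that start with 27 (triangles, 1 array per group) and within those that start with 28 (circles, 3 CLA and 2 control arrays). Ckm lies at -4.11, 0.65 and -5.93 in these, and Atp2a2 at 0.10, 0.09 and 0.14.

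Both forms of other tissues also separated the title numbers. Atp2a2 was higher on both arrays that start with 27 than on all 5 others, as were 8.74% of genes tested. Ckb was lower on both than on all 5 others, as were 12.7%. Such separation was thus common among all genes. On this split 3 of the 6 Atp2a2 probe sets had higher signal on both arrays that start with 27.

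The contrast was smaller without control replicate 2. That array was the highest of 7 arrays for 6 of the 10 genes. Of the 8 bright enough for the fit it was highest for 5, where 15.5% of genes tested had their highest signal there. Because the list was selected on the diet difference, nothing is read from that count. Without control replicate 2 the log2 differences were -3.08 for Ckm, -2.81 for Atp2a1, -2.85 for Pvalb, -2.44 for Ryr1, -2.06 for Casq1 and -1.64 for Cacna1s. Each had the same sign as over all arrays. For Atp2a2 and Ckb they were 0.03 and 0.30.

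Other skeletal muscle transcripts followed the same arrays. Summed signal of the 13 markers of fast or general skeletal muscle was 12933, 892, 2141 and 679.8 on the CLA arrays, against 8959.5, 84454 and 14908 on the control arrays. Acta1, skeletal actin, had 4207, 31.8, 509 and 56.8 on the CLA arrays and 2729, 19588 and 4834 on the control arrays. Mylpf, a fast myosin light chain, ran from 90.0 to 1254 in CLA and from 957 to 6806 in control glands. CLA replicate 1 was the highest CLA array in both sums and single genes.

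Markers of other muscle types were dim or did not share the full array order of the skeletal muscle markers. The slow myosin gene Myh7 was between 3.12 and 25.5 in CLA and between 18.9 and 75.6 in control glands, and the slow troponins Tnnt1 and Tnni1 were below the filter signal on all arrays. Of the slow list, Tpm3, which many cells express, was bright at 7455 to 10519 in CLA glands and 8182 to 9058 in control glands. Myl3 and Tnnc1, each under the filter signal on 1 CLA array, differed by -0.53 and -0.33 on the log2 scale. Myl3 was at 47.7 to 107 in CLA and 101 to 127 in control glands, with control replicates 2 and 3 highest. By mean log2 signal, 4 of the 6 slow markers were lower and 2 higher in CLA glands, with a median difference of -0.38. The heart genes Myh6 and Myl7 did not exceed 45.1 on any array. Tnni3, of the same list, was above the filter signal on all arrays, at 78.3 to 205 in CLA and 102 to 204 in control glands. Myl2, under the filter signal on 6 of 7 arrays, was at 48.2 to 89.2 in CLA and 10.7 to 26.2 in control glands. By mean log2 signal, 3 of the 7 cardiac markers were lower and 4 higher in CLA glands. Their summed signal ran from 324 to 414 in CLA and from 295 to 315 in control glands, every CLA array being slightly higher. Smooth muscle markers overlapped between the diets, with Acta2 at 2219 to 5833 in CLA and 2665 to 5062 in control glands.

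Set against the muscle markers of the same array, 6 of the members varied less over the arrays than their signals did. Atp2a1 relative to the mean of the 13 markers, with the control mean set to 0, was 0.02, -0.67, -0.27 and 0.31 on the CLA arrays and -0.17, -0.10 and 0.27 on the control arrays. Its range over arrays was 0.98 on the log2 scale relative to the markers, against 7.80 for the signal itself. Ckm, relative to the markers, averaged -0.49 ± 0.59 in CLA glands (SD, n = 4), and its control SD was 0.05 (n = 3). Pvalb averaged -0.18 ± 0.68 and Casq1 0.64 ± 0.94 in CLA glands on the same scale (SD, n = 4).

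The range over arrays on that scale was 1.24 for Ckm, 1.53 for Pvalb, 2.03 for Casq1, 3.78 for Cacna1s and 3.89 for Ryr1. Ryr1 ran from -1.64 to 2.25 in CLA glands and from -0.19 to 0.10 in control glands, and Cacna1s from -1.05 to 2.73 in CLA and from -0.37 to 0.27 in control glands. The signal was below the filter signal on 1 CLA array for Atp2a1 and Ckm, on 2 for Pvalb, Casq1 and Ryr1 and on 3 for Cacna1s. Relative to the markers, Ckb averaged 3.79 ± 2.32 and Casq2 2.97 ± 1.71 in CLA glands (SD, n = 4). A gene with a small range over arrays gives such a value whatever its array order. These values therefore do not show whether Casq2 or Ckb followed the order of the markers.

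**Figure D4:**
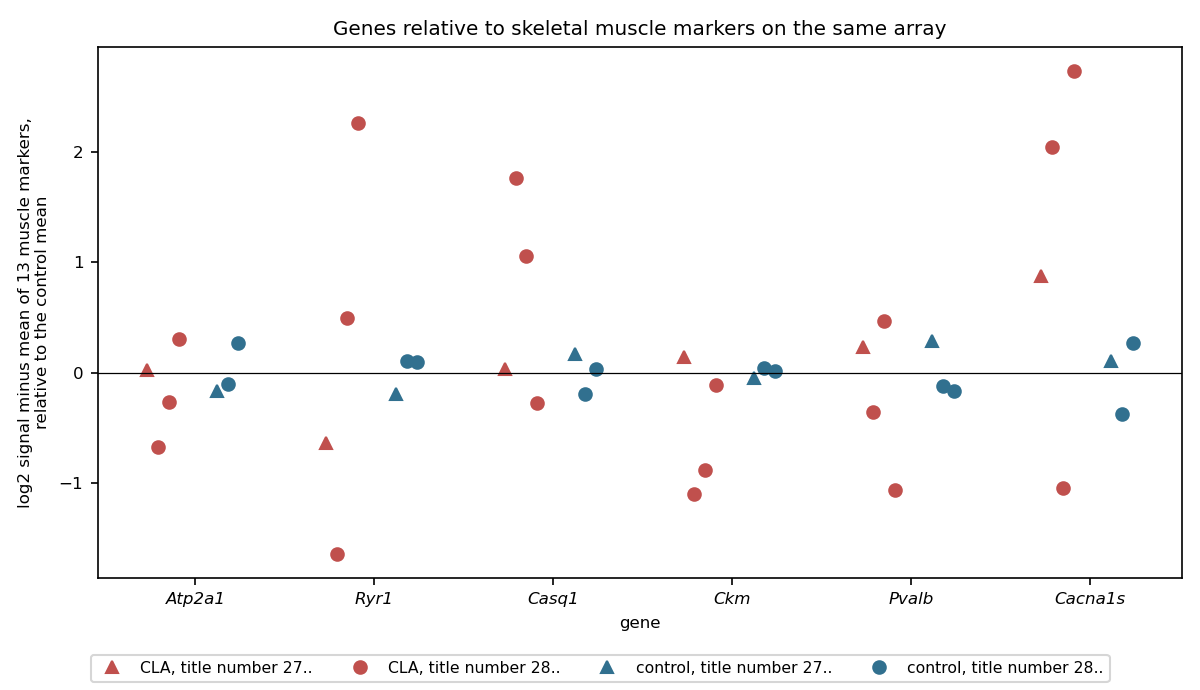
Log2 signal of 6 genes minus the mean log2 signal of 13 skeletal muscle markers on the same array, relative to the control mean, with CLA arrays left of control arrays for each gene and symbols by title number. Control arrays lie between -0.37 and 0.29 for all 6 genes, and CLA arrays spread from -1.64 to 2.73, with Atp2a1 the narrowest.

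Markers of other cell types did not share the array order. Summed white adipocyte signal was 18734, 14439.8, 17812 and 35783 on the CLA arrays, against 53333, 54731 and 45009 on the control arrays. CLA replicate 1, whose muscle forms lay in the control range, was among the low arrays for adipocyte markers, and CLA replicate 4, with low muscle signal, was the highest of the CLA arrays. Brown adipocyte markers, which matter here since brown fat uses Atp2a2 and Ckb, summed to 1512, 935, 1483 and 5154 on the CLA arrays and 15709.8, 16781 and 3392 on the control arrays. Ckb was lowest on control replicate 1 and highest on CLA replicate 4, which had the highest brown adipocyte sum of the CLA arrays. Atp2a2 was highest on CLA replicate 1 and lowest on control replicate 2. The part of these cell types in the values of the 10 genes was not tested.

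The genes whose profile over the 7 arrays was nearest to the mean of the 4 muscle forms were sarcomere and muscle enzyme genes. Nearness was the root mean square distance of log2 signals after each gene's mean was removed, over 12497 genes. The 5 nearest outside the list were Myom2, a protein of the sarcomere's M-band, at 0.37, Ttn, titin, at 0.44, Pgam2, the muscle phosphoglycerate mutase, at 0.53, Tnni2, fast troponin I, at 0.53, and Mylpf at 0.55. Of the 4 genes that enter that mean, Atp2a1 stood at 0.19 and Ckm at 0.44. Ryr1 at 0.84, rank 15, and Casq1 at 0.89, rank 17, were farther from that mean than the 5 genes named. Of the members that do not enter it, Pvalb was at 0.65, rank 9 of all genes. Casq2 was at 2.04, rank 275, Atp2a2 at 2.43, rank 6547, and Ckb at 2.51, rank 9290. A gene with a small range over arrays stands far from that mean whatever its array order. The ranks of Casq2, Atp2a2 and Ckb therefore do not show whether these genes followed the order of the muscle forms.

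Across all genes, limma's moderated test found no gene past an adjusted p of 0.05, with 0 higher and 0 lower (0.00% each way), and its lowest adjusted p was 0.294. Before adjustment, 298 genes (2.38%) were higher and 376 (3.01%) lower with p under 0.05. Leaving out CLA replicate 4 gave 17 genes, all lower, and leaving out control replicate 1 gave 2, both higher. By size, 6 of the 10 members were at least 2-fold lower by mean log2 signal and 0 at least 2-fold higher. Of the 8 bright enough for the fit, 5 were at least 2-fold lower, where 1.41% of genes tested were. The share of genes tested at least 2-fold higher was 0.480%. The list was made with this contrast known, so nothing is read from that count. The median difference was -2.73 over the 10 members, -3.24 over the 8 bright enough for the fit and 0.03 over all genes tested.

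Other genes of calcium handling and of the phosphocreatine system were taken from lists of 41 genes, of which 40 had a probe set and 29 were bright enough to be tested. None passed limma's test over all genes, 0 higher and 0 lower, with adjusted p-values from 0.878 to 0.999. At an unadjusted limma p under 0.05, 2 of the 29 were lower, Tmem38a and Jsrp1, and 0 higher. Of all genes tested, 3.01% were lower and 2.38% higher at that threshold. The median log2 difference was -0.46 over 14 release and store genes, -0.02 over 9 other calcium genes and 0.19 over 6 phosphocreatine genes.

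Among the release and store genes, Stac3, an adaptor of the voltage sensor, had 121, 15.2, 99.1 and 15.7 on the CLA arrays, against 84.2, 295 and 106 on the control arrays. Its log2 difference was -1.75 ± 0.82 (limma SE). Hrc, a calcium-binding protein of the store, had 190.4, 95.3, 67.9 and 60.4 on the CLA arrays and 111, 713 and 175 on the control arrays, a difference of -1.37 ± 0.62. Srl, sarcalumenin, another store protein, differed by -0.96 ± 0.45, and Tmem38a, a cation channel of the store, by -0.88 ± 0.37. These 4 had limma adjusted p-values between 0.878 and 0.904, and control replicate 2 was the highest array for each. Of the 14 tested, 11 were lower and 3 higher in CLA glands, where 5592 of all 12497 genes tested were lower and 6905 higher. Among the higher, Jph2 differed by 0.65 ± 0.67 and Fkbp1b by 0.52 ± 0.24 (limma SE), with limma adjusted p-values of 0.985 and 0.904. Every CLA array lay above every control array for 1 of the 14, Fkbp1b, as for 2.64% of genes tested.

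The lists held 11 genes whose mean signal was below the filter, so they were not tested. Of these, 9 were lower and 2 higher in CLA glands by mean log2 signal, from -4.01 to 0.47 with a median of -0.41. The share among all genes below the filter is not given here, so nothing is read from that count. The 4 described here were chosen after their values were seen. Trdn, triadin, which anchors calsequestrin to the release channel, had 92.2, 2.22, 8.61 and 26.5 on the CLA arrays, against 70.3, 653 and 109.9 on the control arrays. Ckmt2, the mitochondrial creatine kinase of muscle, had 85.5, 25.2, 4.09 and 5.39 on the CLA arrays and 68.0, 603 and 186 on the control arrays. Ampd1, the AMP deaminase of muscle, had 92.3, 6.67, 7.38 and 1.95 on the CLA arrays, against 78.8, 614 and 79.6 on the control arrays. Trdn, Ckmt2 and Ampd1 were highest on control replicate 2 and higher on CLA replicate 1 than on the other CLA arrays. Cacng1, a subunit of the muscle calcium channel, went the other way in its mean, with 52.4, 64.04, 10.6 and 20.6 on the CLA arrays, against 10.6, 80.5 and 11.5 on the control arrays, a log2 difference of 0.45. The groups overlapped for all 4.

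The calcium genes of other cells that were bright enough to be tested showed small mean differences, though not all were precise. Orai1, a store-operated channel, differed by -0.47 ± 0.36 (limma SE), Stim1, its sensor in the endoplasmic reticulum, by -0.38 ± 0.21, Itpr2, an inositol trisphosphate receptor, by -0.38 ± 0.28, and Mcu, the mitochondrial calcium channel, by 0.20 ± 0.19. Groups overlapped for all 4, and their limma adjusted p-values were between 0.931 and 0.985. Atp2a3, which encodes SERCA3, differed by 0.06 ± 0.78 (limma SE). Its signal was at 173 to 1723 in CLA and 219 to 1457 in control glands, so that small difference came with a wide scatter. Of the 5 genes of that list too dim to be tested, Camk2b differed by -0.81, Pln by -0.68 and Atp2b4 by 0.47. Camk2b was at 21.3 to 60.4 in CLA and 61.9 to 76.1 in control glands, under the filter signal on 3 CLA arrays. Ryr2, the release channel of heart, was dim at 5.46 to 36.1 in CLA and 6.42 to 19.7 in control glands.

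In the phosphocreatine list, Gatm, which makes the creatine precursor, differed by 0.33 ± 0.21 (limma SE) and Gamt, which completes creatine, by 0.16 ± 0.20. The creatine transporter Slc6a8 differed by 0.21 ± 0.21 and Ampd3, an AMP deaminase of other tissues, by 0.29 ± 0.34. None of these passed limma's test, with adjusted p-values from 0.936 to 0.996. Ckmt1, the mitochondrial creatine kinase of other tissues, had 556, 818, 747 and 1235 on the CLA arrays, against 562, 1103 and 776 on the control arrays, with a log2 difference of 0.04 ± 0.30 (limma SE). Like Ckb, it was lower on both arrays with title numbers that start with 27 than on the other 5, while Ckmt2 was not.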

How the data were processed

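Per the labels' protocols, total RNA of each gland was labelled with biotin and put on an Affymetrix array with 1 colour, which holds 45101 probe sets. The deposited intensity values are linear MAS5 signals according to the submitters' processing notes. MAS5 version, genome build and annotation: not given in the sources used here. The authors' values were already scaled, so every change is relative to total signal.

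Signals below 1 were set to 1 before log2. Of 34945 probe sets with 1 gene symbol, 34741 were named by Entrez identifier in a RefSeq table of GRCm38.p6. The 12497 genes with a mean signal of 57.7 or more were fitted with limma 3.58.1 in R 4.3.3 (eBayes with trend), CLA minus control, two-sided, with Benjamini-Hochberg adjustment over all of them and a threshold of 0.05. The fit was tested on simulated data.

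The members, gene lists and named genes were chosen with earlier results of these data known. Named genes were all members, the 4 largest differences in each pathway list, the 5 nearest profiles and bright markers. Jsrp1, Jph2, Fkbp1b, Trdn, Cacng1, Camk2b, Pln, Atp2a3, Atp2b4, Ckmt2, Ampd1, Ckmt1, Ryr2 and the single markers were chosen after their values were seen. Alternatives were other normalizations, pseudocounts of 16 and 64, probe set means, other filters, the title number as a block or alone, and each array left out.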

Additional observations from a re-analysis of the deposited data

How the results depend on the processing

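The number of genes past limma's adjusted p was 0 under all 3 filters, both other normalizations, both pseudocounts, probe set means and the title number as a block. It was 1 within title numbers that start with 28 and from 0 to 17 with an array left out, 17 without CLA replicate 4 and 2 without control replicate 1. Genes with an unadjusted p under 0.05 numbered 674 over all arrays, 380 without control replicate 2 and 1380 without control replicate 1. The count over the pathway lists was 0 under every alternative run. The mean difference of the 4 muscle forms was 0.41 within title numbers that start with 27, where the sign turned, and from -4.45 to -2.59 with an array left out. Under the other alternatives it ran from -5.16 to -2.62, the smallest with a pseudocount of 64. The muscle forms minus the other forms gave 0.25 within title numbers that start with 27 and from -4.63 to -2.76 with an array left out. Atp2a2 with Ckb ran from 0.06 to 0.18 with an array left out. The cause of these shifts was not tested. No paired analysis was possible because the labels give no replicate numbers shared between the diets. Dim probe sets of MAS5 carry background, so the size of a log2 difference is uncertain where signals fall below the filter signal. With a pseudocount of 64 the difference was -2.07 for Ryr1, -1.84 for Casq1, -2.94 for Pvalb, -0.88 for Cacna1s and 0.20 for Sln. Without it these were -3.51, -2.98, -3.80, -2.47 and 0.86.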
